A study of Mus musculus with 18 samples.

Results

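The insulin-like growth factor (IGF) axis was followed in the fetal mouse lung through 10 genes: the ligands Igf1 and Igf2, the receptors Igf1r and Igf2r, and the binding proteins Igfbp2, Igfbp3, Igfbp4, Igfbp5, Igfbp6 and Igfbp7. Its members were all probe sets whose only gene symbol in the platform annotation was one of these, 28 of the 45037 probe sets tested, for 10 of 18193 genes. A probe set is a group of short oligonucleotides on the array that together measure one stretch of a transcript. Igf1 was measured by 4 of them, Igf2 by 2, Igf1r by 5, Igf2r by 2, Igfbp2 by 1, Igfbp3 by 2, Igfbp4 by 6, Igfbp5 by 2, Igfbp6 by 1 and Igfbp7 by 3. Another probe set carries both Igf2r and its antisense transcript Airn as symbols and was not counted, and its log2 signal lay between 6.09 and 6.49 in all 18 pools.

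The lungs came from BALB/c fetuses at gestational day (GD) 17 or 18. Males whose dams received flutamide (18 flut and 17 flut), males whose dams received vehicle (18 m and 17 m) and females whose dams received vehicle (18 f and 17 f) were compared, with 3 pools in each group and RNA of 3 fetuses from separate litters in each pool. Flutamide, which blocks the androgen receptor, was given to the dam at 1 mg per day under the skin from GD10 until the day before harvest, so that an action on the dam and one on the fetus cannot be told apart, and no flutamide-treated females were among the groups. In whole lung, fewer cells of a type and less RNA per cell cannot be told apart either.

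IGF1 and IGF2 are secreted growth factors that both signal through the receptor tyrosine kinase IGF1R, while IGF2R carries IGF2 to the lysosome for breakdown. The binding proteins hold the ligands in the extracellular space and lengthen or limit their action, IGFBP6 with a preference for IGF2 and IGFBP7 with only weak binding. Mice that lack Igf1 or Igf1r have small, immature lungs, and in the mouse Igf2 is imprinted and expressed from the paternal copy while Igf2r is expressed from the maternal one.

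All values are log2 of the deposited intensity. Each difference is on that scale, as flutamide-treated males minus males, males minus females or GD18 minus GD17, ± gives the SD over 3 pools, and a probe set was called when its adjusted p in limma was under 0.05 among all 45037 tested. Some pools stood apart. In 18 m 3 the array's 5′ probe set of Gapdh minus its 3′ probe set was -0.39, against 0.14 to 0.27 in the other 17 pools, and 10 of 11 listed liver genes, found with 1 symbol, averaged 12.15, the highest of all pools. The liver average ran from 6.74 to 10.91 in the other 17 pools, with 18 flut 2 at 10.91. The exocrine pancreas genes averaged 9.33 to 9.97 in 17 m 3, 17 f 2 and 17 f 3, against 5.39 to 5.90 elsewhere (10 of 13 listed genes). Xist was at 11.95 in 18 flut 3, against 8.15 and 8.08 in 18 flut 1 and 18 flut 2. In the 18 f pools it was at 12.33 to 12.51. The Y-linked gene Uty was at 7.11 in 18 flut 3, against 8.34 and 8.31 in 18 flut 1 and 18 flut 2 and 3.73 to 3.84 in 18 f. Kdm5d and Eif2s3y were also lower in 18 flut 3 than in those pools of its group. Whether 18 flut 3 holds female RNA was not tested, and it was kept as labelled. Lung identity was plain in every pool, with Sftpc, the surfactant protein of alveolar type II cells, between 13.92 and 14.72. The labels number the pools from 1 to 3 in each group but do not say that equal numbers share a litter or a day.

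Stretches of 250 bases before the annotated start are shown for 4 members, because Igf1, Igfbp2 and Igfbp5 hold the probe sets called lower with flutamide and Igfbp6 showed the largest difference between the days. Sequences are from RefSeq on GRCm38.p6, read 5′ to 3′ on the strand of the gene. Capitals mark any match, on either strand, to the hormone response core AGAACA with its complement TGTTCT, the GC box GGGCGG with its complement CCGCCC, or the TATA box TATAAA with its complement TTTATA.
Igf1, chr10:87860861-87861110, + strand: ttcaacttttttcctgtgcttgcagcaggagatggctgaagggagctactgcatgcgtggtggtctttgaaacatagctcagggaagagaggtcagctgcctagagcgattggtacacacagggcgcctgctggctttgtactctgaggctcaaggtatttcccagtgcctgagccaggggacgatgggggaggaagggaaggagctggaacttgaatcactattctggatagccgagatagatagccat
Igfbp2, chr1:72824230-72824479, + strand: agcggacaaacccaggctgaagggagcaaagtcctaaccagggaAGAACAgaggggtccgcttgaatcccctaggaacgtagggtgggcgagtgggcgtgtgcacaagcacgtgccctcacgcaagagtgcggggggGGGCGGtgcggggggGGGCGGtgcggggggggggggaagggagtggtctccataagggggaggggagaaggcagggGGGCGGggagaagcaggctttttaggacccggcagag
Igfbp5, chr1:72874866-72875115, - strand: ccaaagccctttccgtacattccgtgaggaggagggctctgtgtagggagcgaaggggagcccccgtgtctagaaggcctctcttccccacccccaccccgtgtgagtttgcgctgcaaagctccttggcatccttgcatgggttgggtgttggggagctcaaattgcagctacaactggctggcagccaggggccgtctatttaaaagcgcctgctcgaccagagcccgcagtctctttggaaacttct
Igfbp6, chr15:102143936-102144185, + strand: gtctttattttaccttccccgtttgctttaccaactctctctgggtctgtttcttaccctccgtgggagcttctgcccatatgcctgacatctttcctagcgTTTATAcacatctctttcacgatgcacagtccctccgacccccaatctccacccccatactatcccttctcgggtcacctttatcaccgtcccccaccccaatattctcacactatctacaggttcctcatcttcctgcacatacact
The core of 6 letters, which receptors for androgens and glucocorticoids share, stood once in the printed Igfbp2 stretch, from base -206 to base -201 counted from the start. It stood in none of the other 3 printed. Igfbp2 has another annotated start, and the stretch before it (chr1:72825137-72825386, not printed) held neither this core nor a GC box or TATA box. The core also stood in a stretch before Igf2 at bases -85 to -80. It is found in 16.1% of the 32851 stretches of this length in the table, and the full palindrome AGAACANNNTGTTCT, which contains the core on both strands, in 0.00913% of them and in none of the 14 stretches of the 10 members. The GC box, present in 32.7% of all stretches, stood before Igf1r, Igf2, Igf2r, Igfbp2 and Igfbp7, and the TATA box, present in 12.4%, stood before Igfbp4 at bases -28 to -23 and before Igfbp6, on the other strand, at bases -148 to -143. These matches describe the letters only. The bases G and C made up 52.8% of the Igf1 stretch, 67.2% of the printed Igfbp2 stretch, 58.8% of the Igfbp5 stretch and 49.6% of the Igfbp6 stretch. The Igfbp2 stretch not printed had 56.4%, and the median over all stretches was 52.4%. Igfbp2 and Igfbp5 are neighbouring protein-coding genes on chromosome 1, as Igfbp1 and Igfbp3 are on chromosome 11, in the same assembly.

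Males whose dams received flutamide were compared with males whose dams received vehicle on each day, to see how the transcripts of the axis differ when androgen action is blocked. Transcripts of 1 ligand and of 2 binding proteins were lower with flutamide and no member was called higher with all pools in the fit at equal weight. At GD18, 2 of the 28 member probe sets (7.14%) were lower in 18 flut than in 18 m and 0 were higher, for Igf1 and Igfbp5, beside 3.95% of all probe sets called and 3.21% called lower. The median difference was -0.06 over the members and 0.01 over all probe sets, and 6 members had an unadjusted p under 0.05. At GD17, 4 of 28 (14.3%) were lower in 17 flut than in 17 m and 0 were higher, for Igf1, Igfbp2 and Igfbp5, beside 3.55% of all called and 2.28% called lower. Here the median difference was -0.10 over the members and 0.02 over all, and 11 members had an unadjusted p under 0.05.

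Igf1, the ligand whose loss stunts the fetus, was lower with flutamide in the probe set 1437401_at on both days. Its log2 signal was 9.86, 9.86 and 9.67 in the 3 pools of 18 flut, against 10.27, 10.52 and 10.30 in 18 m. It was 10.11, 10.42 and 10.32 in 17 flut, against 10.68, 10.62 and 10.75 in 17 m. On each day every flutamide pool lay below every vehicle male pool. The difference was -0.57 at GD18 (SE 0.09, limma adjusted p = 0.00103), a 1.48-fold lower signal, and -0.40 at GD17 (SE 0.09, limma adjusted p = 0.0204), a 1.32-fold lower signal. Female pools, at 10.13, 10.23 and 10.12 in 18 f and 10.48, 10.55 and 10.51 in 17 f, lay between the flutamide-treated males and the males on both days.

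A further Igf1 probe set, 1419519_at, was at 8.63, 8.90 and 8.75 in 17 flut, against 9.30, 9.26 and 9.40 in 17 m, and was called, with a difference of -0.56 (SE 0.11, limma adjusted p = 0.0153). At GD18 it was at 8.29, 8.27 and 8.13 in 18 flut and 8.78, 8.81 and 8.31 in 18 m, where pool 18 m 3 came close to the flutamide pools. The difference of -0.40 (SE 0.11, limma adjusted p = 0.0643) was not called. With all pools at equal weight the other 2 probe sets of Igf1 had differences of the same sign without a call. They were -0.23 for 1434413_at and -0.22 for 1452014_a_at at GD18 and -0.33 and -0.52 at GD17. Pool 18 m 3 was the lowest of its group in both. At GD18 array weights called 1419519_at (limma adjusted p = 0.00033), 1434413_at (0.00375) and 1452014_a_at (0.00606). At GD17 they called 1452014_a_at (0.0118). With 18 m 3 and 18 flut 3 left out together, 1452014_a_at (0.00601) and 1434413_at (0.0372) were called at GD17. The 4 probe sets followed one another over the 18 pools, with Pearson r from 0.80 to 0.96.

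At GD18 the 1437401_at call held with any 1 of the 6 pools left out (-0.62 to -0.49, adjusted p from 0.00151 to 0.00972), but not in a fit of the 18 flut and 18 m arrays alone (adjusted p = 0.0985), and without 18 flut 3 the difference was -0.51. At GD17 it was lost without 17 flut 1 (-0.31, adjusted p = 0.0952) and without 17 m 1 (-0.40, adjusted p = 0.0649), as well as in a fit of the 17 flut and 17 m arrays alone (adjusted p = 0.0514), and that of 1419519_at without 17 flut 1 (adjusted p = 0.076), 17 flut 3 (0.0506) or 17 m 1 (0.051). Without 18 m 3, the pool with the low Gapdh 5′ value, 6 members were called at GD18, 4 of them Igf1 probe sets, beside 6.64% of all, with differences of -0.60 for 1437401_at, -0.56 for 1419519_at, -0.51 for 1452014_a_at and -0.48 for 1434413_at. Cell division genes (7 of 8 listed genes) moved with Igf1 in their summed signal, but not each of them did. The sum was 4559 to 5313 in 18 flut, against 6754 to 7642 in 18 m, and 8621 to 9349 in 17 flut, against 9796 to 10334 in 17 m. Mki67, Bub1, Cenpe and Kif11 were lower with flutamide without overlap on both days, whereas Cdk1, Aurkb and Top2a overlapped on both. Mki67 differed most at GD18, at 9.43 to 9.65 in 18 flut, against 10.90 to 11.29 in 18 m. The lung mesenchyme genes (10 of 10 listed) summed to 44671 to 46571 in 18 flut, against 42559 to 43750 in 18 m, and to 32197 to 32967 in 17 flut, against 34065 to 37058 in 17 m. These sums were thus higher with flutamide at GD18 and lower at GD17. Their mean log2 signal overlapped at GD18 (11.72 to 11.78 in 18 flut, 11.68 to 11.75 in 18 m). At GD17 it did not (11.20 to 11.27 in 17 flut, 11.39 to 11.49 in 17 m). Members went both ways at GD18, with Postn lower and Col6a1 higher in all 18 flut pools than in the 18 m pools. Smooth muscle genes (6 of 6) overlapped at GD18 and summed to 10523 to 11062 in 17 flut, against 11861 to 13500 in 17 m. The part of these lists in the results for Igf1, Igfbp2 and Igfbp5 was not tested.

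Igf2, a major fetal growth factor, was called with flutamide in neither of its probe sets with all pools in the fit at equal weight. Its probe set 1448152_at stayed within 12.48 to 12.90 in all 18 pools and was not called in any of the 9 comparisons, with a flutamide difference of -0.04 at GD18 (95% interval -0.24 to 0.17) and -0.13 at GD17 (-0.33 to 0.08). The probe set 1415931_at was at 7.30, 7.45 and 7.42 in 18 flut, against 7.98, 7.99 and 7.01 in 18 m, and at 7.72, 7.82 and 7.63 in 17 flut, against 8.11, 8.50 and 8.66 in 17 m. Its groups did not overlap at GD17, while at GD18 the pool 18 m 3 lay below all flutamide pools. The differences of -0.27 at GD18 (limma adjusted p = 0.533) and -0.70 at GD17 (SE 0.20, limma adjusted p = 0.0704) were not called. Without 18 m 3 the GD18 difference was -0.60 and was called (adjusted p = 0.0191). Array weights called 1415931_at lower on both days (limma adjusted p = 0.0114 at GD18 and 0.00748 at GD17). So did a fit with 18 m 3 and 18 flut 3 left out together (limma adjusted p = 0.0444 at GD18 and 0.00693 at GD17).

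**Figure D1:**
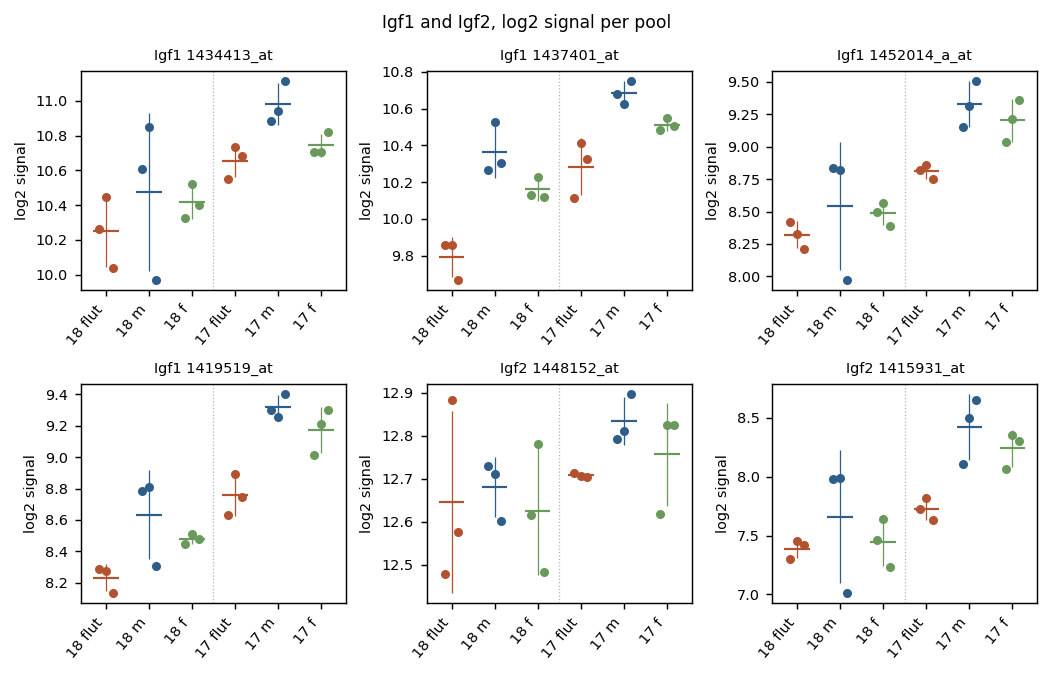
Log2 signal (vertical axis) of the 4 Igf1 and 2 Igf2 probe sets in the 6 groups (horizontal axis, 3 pools each). Points are pools in the order of their numbers, the horizontal line is the group mean and the vertical line 1 SD to each side. In Igf1 1437401_at the 18 flut pools lie between 9.67 and 9.86, all below the 18 m pools at 10.27 to 10.52.

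The receptors gave no call with flutamide on either day with all pools in the fit. Igf1r, the signalling receptor, was measured at GD17 by 1452982_at at 10.47, 10.78 and 10.79 in 17 flut and 10.37, 10.28 and 10.12 in 17 m, without overlap, but its difference of 0.42 (SE 0.16, limma adjusted p = 0.151) was not called, and at GD18 the difference was -0.08. The other 4 Igf1r probe sets had differences between -0.29 and 0.16 over both days. Without 18 m 3, 1446303_at was called higher in 18 flut than in 18 m (0.27, adjusted p = 0.0365), beside 0.16 with that pool, and array weights called it too. Igf2r, the receptor that clears IGF2, was at 10.17, 10.37 and 10.28 in 17 flut and 10.73, 10.78 and 10.62 in 17 m in 1424112_at, groups that did not overlap, with a difference of -0.44 (SE 0.12, limma adjusted p = 0.0601). At GD18 the pools of the 2 groups were mixed, at 10.72, 10.32 and 10.71 in 18 flut and 10.75, 10.73 and 10.29 in 18 m. The lowest of each group, 18 flut 2 and 18 m 3, were the pools highest in liver genes. Over the 18 pools 1424112_at had r = -0.47 with the mean log2 signal of the liver genes, and -0.78 after the group means were subtracted. For 1424111_at these values were 0.14 and -0.02. The part of the liver genes in these results was not tested. In the other Igf2r probe set, 1424111_at, the differences were -0.26 at GD18 (limma adjusted p = 0.148) and -0.30 at GD17 (limma adjusted p = 0.0832). At GD17, Igf1r 1452982_at (adjusted p = 0.0441) and Igf2r 1424112_at (adjusted p = 0.0117) were called with array weights, and both also with 18 m 3 and 18 flut 3 left out together (adjusted p = 0.0384 and 0.0153).

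**Figure D2:**
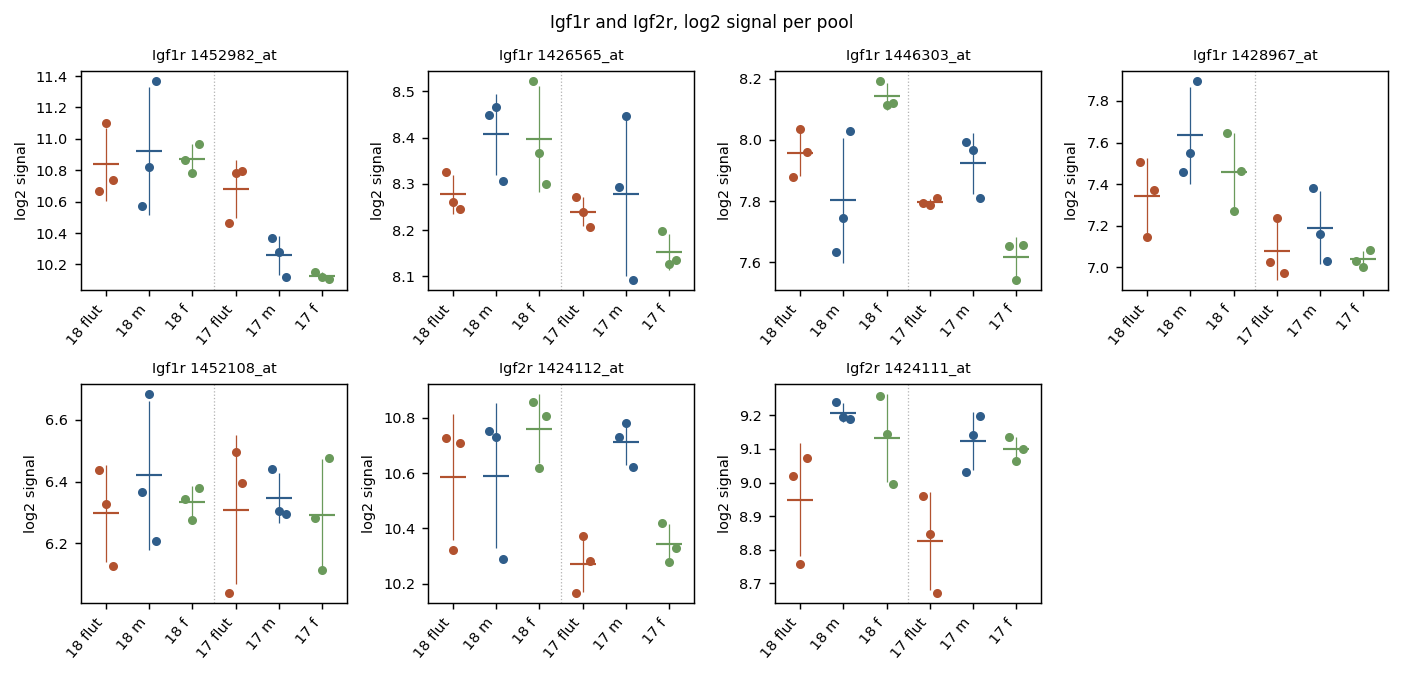
Log2 signal (vertical axis) of the 5 Igf1r and 2 Igf2r probe sets in the 6 groups (horizontal axis, 3 pools each), with points for pools, horizontal lines for means and vertical lines for 1 SD to each side. In Igf1r 1446303_at the 18 m pools (7.63 to 8.03) lie below all 18 f pools, and the 17 m pools (7.81 to 7.99) above all 17 f pools.

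Among the binding proteins, Igfbp2 was called lower with flutamide at GD17. It was at 9.33, 9.32 and 9.33 in 17 flut, against 9.88, 9.66 and 9.998 in 17 m, a difference of -0.51 (SE 0.13, limma adjusted p = 0.045). The 3 flutamide pools were nearly equal and lay below all male pools. At GD18 it was at 8.13, 8.72 and 8.24 in 18 flut and 8.85, 8.77 and 8.46 in 18 m, with overlap and a difference of -0.33 (SE 0.13, limma adjusted p = 0.203). The GD17 call was lost without 17 flut 1 (adjusted p = 0.119), 17 flut 2 (0.126), 17 flut 3 (0.106), 17 m 1 (0.132) or 17 m 3 (0.106). At GD18 a call appeared without 18 flut 2, a pool high in liver genes (-0.51, adjusted p = 0.0271), and with array weights (-0.45, adjusted p = 0.012). A further quantile normalization and an indicator in the model of the 3 pools high in pancreas genes each ended the GD17 call too. The lung epithelium genes (8 of 8 listed) summed to 27816 to 29567 in 17 flut, against 21056 to 27126 in 17 m. They did not all move one way. Sftpc, Sftpa1, Scgb1a1, Foxj1 and Ager were higher in 17 flut without overlap, and Sftpb and Nkx2-1 overlapped. Epcam was lower, at 10.88 to 10.94 in 17 flut, against 10.98 to 11.03 in 17 m. The part of these genes in the Igfbp2 result was not tested.

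Igfbp5, which binds extracellular matrix as well as the ligands, was lower with flutamide on both days in 1452114_s_at by nearly the same amount. It was at 10.76, 10.73 and 10.79 in 18 flut, against 10.99, 10.94 and 10.98 in 18 m, and at 10.80, 10.89 and 10.79 in 17 flut, against 11.09, 10.97 and 11.03 in 17 m. The groups did not overlap on either day, and the difference was -0.21 (SE 0.05) on each, with a limma adjusted p of 0.040 at GD18 and 0.0466 at GD17. Both calls were lost with any 1 of the 6 pools left out, at adjusted p from 0.054 to 0.12 at GD18 and from 0.0528 to 0.159 at GD17, while the differences stayed between -0.22 and -0.20 and between -0.24 and -0.18, and a further quantile normalization or a fit of the compared groups alone ended both too. The suffix of this probe set marks oligonucleotides that may match more than 1 transcript, and the other Igfbp5 probe set, 1422313_a_at, did not follow it (r = 0.11 over 18 pools) and differed by 0.14 at GD18 and -0.13 at GD17, without a call.

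Igfbp3, Igfbp4, Igfbp6 and Igfbp7 had no probe set called with flutamide. Igfbp4, which is cut by the protease PAPP-A to free its ligand, was at 12.61, 12.64 and 12.58 in 17 flut and 12.48, 12.37 and 12.37 in 17 m in 1437405_a_at, without overlap and with a difference of 0.21 (SE 0.09, limma adjusted p = 0.218). At GD18 the same probe set reached 12.91 in 18 m 3, against 12.42 and 12.52 in 18 m 1 and 18 m 2, and the flutamide difference was 0.02. The GD17 difference was called higher with array weights (adjusted p = 0.049) and with 18 m 3 and 18 flut 3 left out together (adjusted p = 0.0375). Igfbp6 differed by 0.23 at GD18 and 0.32 at GD17 (SE 0.15, limma adjusted p = 0.475 and 0.247), and the most responsive of the 3 Igfbp7 probe sets, 1423585_at, by 0.17 and 0.26 (SE 0.09, limma adjusted p = 0.345 and 0.109). The Igfbp3 differences lay between -0.20 and 0.11.

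**Figure D3:**
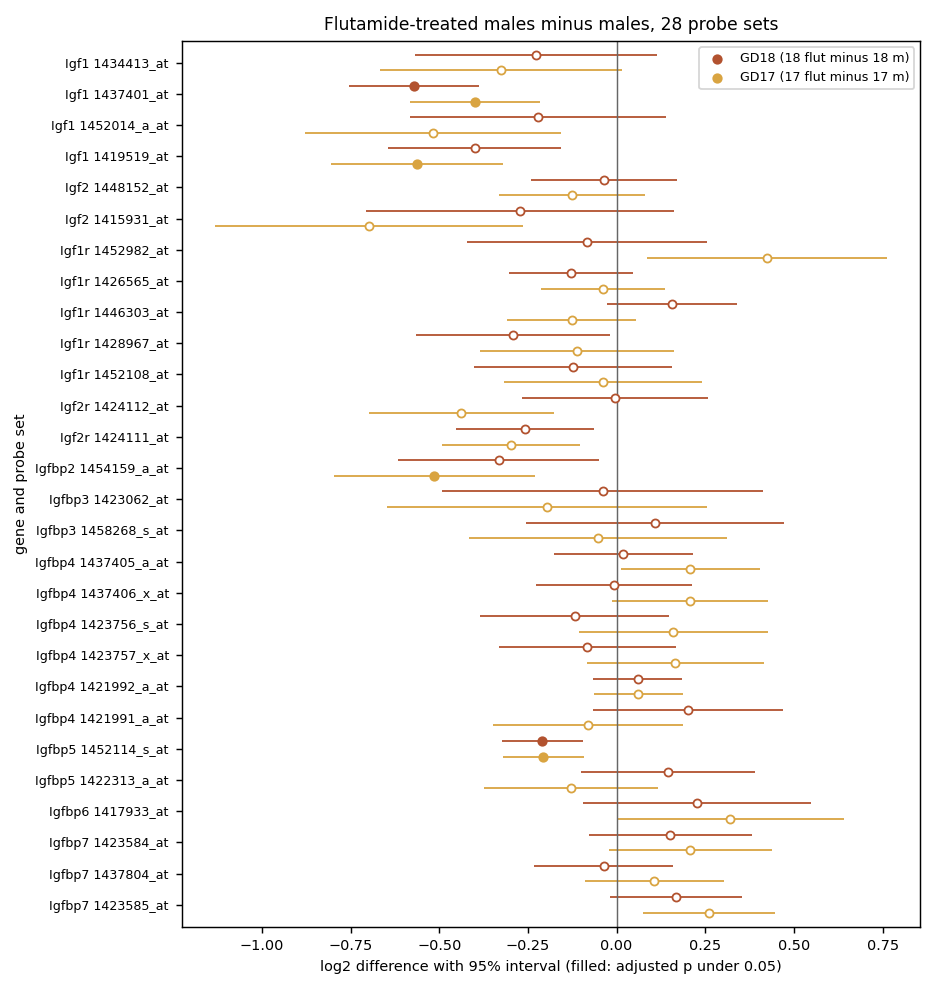
Difference in log2 signal between flutamide-treated males and males (horizontal axis) for the 28 probe sets (vertical axis), with 95% intervals from limma at GD18 and GD17. Filled points have an adjusted p under 0.05: Igf1 1437401_at (-0.57 at GD18, -0.40 at GD17), Igf1 1419519_at (-0.56 at GD17), Igfbp2 (-0.51 at GD17) and Igfbp5 1452114_s_at (-0.21 on each day).

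Whether flutamide acted differently on the 2 days was tested by the GD18 difference minus the GD17 difference. Of 28 member probe sets, 0 were called, beside 0.364% of all, and 3 had an unadjusted p under 0.05 with limma: Igf1r 1452982_at (-0.51), Igf1r 1446303_at (0.28) and Igf2r 1424112_at (0.43). For Igf1 1437401_at it was -0.17 (95% interval -0.43 to 0.09) and for Igfbp5 1452114_s_at -0.00 (-0.17 to 0.16), and for Igfbp2 it was 0.18 (-0.22 to 0.58). The calls that passed on 1 day alone are therefore not shown to differ between the days.

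Males and females were compared on each day to see whether the members differed by sex. At GD18, 0 of 28 were called between 18 m and 18 f with limma, beside 1.85% of all, and 3 had an unadjusted p under 0.05. At GD17, 0 of 28 were called between 17 m and 17 f, beside 4.10% of all, again with 3 at an unadjusted p under 0.05. In Igfbp5 1452114_s_at and Igf1 1437401_at every male pool lay above every female pool on both days. The Igfbp5 difference was 0.16 at GD18 (limma adjusted p = 0.167) and 0.18 at GD17 (limma adjusted p = 0.07), and that of Igf1 0.20 at GD18 (limma adjusted p = 0.284) and 0.17 at GD17 (limma adjusted p = 0.339), none of them called. These comparisons share their male pools with the flutamide comparisons. Igf2r 1424112_at differed by -0.17 at GD18 and by 0.37 at GD17, where it was at 10.73, 10.78 and 10.62 in 17 m and 10.42, 10.28 and 10.33 in 17 f (limma adjusted p = 0.12). Without 18 m 3, 3 members were called at GD18, beside 6.59% of all: Igf1 1419519_at (0.32), Igf2 1415931_at (0.54) and Igf1r 1446303_at (-0.45). Without 17 m 3, a pool high in pancreas genes, Igf1r 1446303_at alone was called at GD17 (0.36, adjusted p = 0.0347).

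For a single member probe set, Igf1r 1446303_at, the sex difference depended on the day. It was at 7.63, 7.75 and 8.03 in 18 m, against 8.19, 8.11 and 8.12 in 18 f, and at 7.99, 7.97 and 7.81 in 17 m, against 7.65, 7.54 and 7.66 in 17 f. Male pools were thus all lower at GD18 and all higher at GD17, with differences of -0.34 (limma adjusted p = 0.0545) and 0.31 (limma adjusted p = 0.0576). The GD18 sex difference minus that of GD17 was -0.65 (SE 0.12, limma adjusted p = 0.00395), 1 of 28 members beside 6.54% of all probe sets called, and it held with each of the 12 pools left out (-0.76 to -0.56). The other 4 Igf1r probe sets differed by sex between 0.01 and 0.18 on both days and did not share this pattern.

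Between the days, Igfbp6 and Igfbp7 were higher and Igfbp2 and Igf1 lower at GD18 in all 3 groups. In flutamide-treated males 3 of 28 members were called higher and 3 lower (21.4% in all), close to the background of 20.3% of all called, 9.61% higher and 10.7% lower. In males 5 were higher and 6 lower (39.3% in all), beside 25.0% of all, 12.4% higher and 12.6% lower, and in females 8 were higher and 5 lower (46.4% in all), beside 33.6% of all, 16.5% higher and 17.1% lower. These calls fell in 4 genes in flutamide-treated males, in 6 genes in males and in 7 genes in females, and Igfbp3, Igfbp4 and Igfbp5 had no call in any of these 3 comparisons with all pools in the fit. The member medians of 0.03, 0.07 and 0.02 lay near those over all probe sets, -0.01, 0.01 and 0.02.

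Igfbp6, which binds IGF2 in preference to IGF1, showed the largest difference of any member. It was at 10.12, 9.66 and 10.13 in 18 flut, against 7.86, 7.79 and 7.79 in 17 flut. In males it was at 9.86, 9.68 and 9.69 at GD18, against 7.28, 7.87 and 7.33 at GD17, and in females at 10.21, 9.94 and 9.85 at GD18, against 7.76, 7.46 and 7.53 at GD17. No GD18 pool lay below 9.66 and no GD17 pool above 7.87. The differences were 2.16 in flutamide-treated males, 2.25 in males and 2.41 in females (SE 0.15 each, limma adjusted p = 7.86e-07, 3.19e-07 and 6.31e-08), 4.46-fold, 4.76-fold and 5.33-fold, and they kept their calls with any pool left out (2.07 to 2.501 over the 3 comparisons).

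Igfbp7, a matrix-associated member that binds IGFs weakly, also rose. In 1423584_at it averaged 10.62 ± 0.12 in 18 flut and 9.58 ± 0.08 in 17 flut, 10.47 ± 0.13 in 18 m and 9.37 ± 0.19 in 17 m, and 10.57 ± 0.05 in 18 f and 9.40 ± 0.21 in 17 f (SD, n = 3 pools each). The differences were 1.05, 1.10 and 1.17 (SE 0.11 each, limma adjusted p = 8.16e-06, 4.34e-06 and 6.27e-07). The probe set 1423585_at, of low signal (mean 5.62), rose by 0.41, 0.51 and 0.50 and correlated with 1423584_at (r = 0.91 over 18 pools). By contrast 1437804_at stayed within 6.91 to 7.31, with differences of -0.08, 0.07 and -0.07. It did not follow 1423584_at (r = -0.01) or 1423585_at (r = 0.18). Igfbp7 calls in 1423584_at and 1423585_at held with any pool left out.

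Igfbp2 fell in all 3 groups. It was at 8.13, 8.72 and 8.24 in 18 flut, against 9.33, 9.32 and 9.33 in 17 flut. It was at 8.85, 8.77 and 8.46 in 18 m, against 9.88, 9.66 and 9.998 in 17 m, and at 8.50, 8.63 and 8.63 in 18 f, against 9.92, 10.11 and 10.13 in 17 f. The GD18 and GD17 pools did not overlap in any group. The differences were -0.97, -1.15 and -1.47 in flutamide-treated males, males and females (SE 0.13 each, limma adjusted p = 7.68e-05, 1.65e-05 and 5.24e-07), a signal 1.96-fold, 2.22-fold and 2.76-fold lower at GD18, and all held with any pool left out. Its chromosomal neighbour Igfbp5 differed by only -0.07, -0.06 and -0.03 in 1452114_s_at, without a call.

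Igf1 was lower at GD18 as well. Its probe set 1419519_at differed by -0.52 in flutamide-treated males, -0.69 in males and -0.70 in females (SE 0.11 each, limma adjusted p = 0.00323, 0.000347 and 0.000146), and 1437401_at by -0.49, -0.32 and -0.35 (SE 0.09 each, limma adjusted p = 0.000615, 0.0117 and 0.00429). Both kept these calls with any pool left out. The probe set 1452014_a_at was called in males (-0.78) and females (-0.72) but not in flutamide-treated males (-0.49, limma adjusted p = 0.0532), and its male difference was -0.50 and still called without 18 m 3. The probe set 1434413_at was called in males only (-0.50, limma adjusted p = 0.0298, against -0.41 and -0.33 in flutamide-treated males and females). With array weights it was called in the other 2 groups as well, and its male call was lost in turn. With all arrays at equal weight the male call of 1434413_at was lost without 18 m 3 (-0.25, adjusted p = 0.132), without 17 m 2 (adjusted p = 0.0569) and without 17 m 3 (adjusted p = 0.103). In a fit of the male arrays alone, 1419519_at was the one Igf1 probe set still called in males, and array weights also ended the male call of 1437401_at.

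For Igf2, 1415931_at was lower at GD18 in males and females, with differences of -0.76 and -0.80 (SE 0.20 each, limma adjusted p = 0.0114 and 0.00576), and differed by -0.34 in flutamide-treated males, without a call (limma adjusted p = 0.307). The male call was lost without 17 m 3 (-0.65, adjusted p = 0.0547), and without 18 m 3 the male difference was -0.44. In a fit of the male arrays alone it was lost as well (adjusted p = 0.134). In females the call was lost with the indicator of the 3 pools high in pancreas genes (-0.59, adjusted p = 0.0872), and that indicator also ended the female call of Igf1 1452014_a_at (-0.54, adjusted p = 0.0587). Igf2 1448152_at differed by -0.06, -0.15 and -0.13, without a call.

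Igf1r was called in males and females, higher at GD18 in each case with all pools in the fit. In 1452982_at it was at 10.57, 10.82 and 11.37 in 18 m, against 10.37, 10.28 and 10.12 in 17 m, and at 10.87, 10.78 and 10.97 in 18 f, against 10.15, 10.12 and 10.10 in 17 f. The GD18 pools lay above the GD17 pools in both sexes, with differences of 0.66 and 0.75 (SE 0.16 each, limma adjusted p = 0.00562 and 0.00144). In flutamide-treated males, where the GD17 pools were already at 10.47 to 10.79, the difference was 0.16 (limma adjusted p = 0.594). Without 18 m 3 the male difference was 0.44 and still called, but it was not called in a fit of the male arrays alone (adjusted p = 0.0758). The probe set 1428967_at was called in males (0.44) and females (0.42), 1426565_at (0.24) and 1446303_at (0.53) in females, and 1452108_at in none. In males 1446303_at differed by -0.12 without a call, but without 18 m 3 it was called lower (-0.23, adjusted p = 0.0291), as it was with array weights (adjusted p = 0.0333).

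Of these Igf1r calls, that of 1428967_at in males was lost without 17 m 2 (adjusted p = 0.0519), 17 m 3 (0.0818) or 18 m 3 (0.0926), and in females without 17 f 2 (0.0551) or 18 f 1 (0.0975). That of 1426565_at in females was lost without 17 f 2 (0.0857), 17 f 3 (0.0816), 18 f 1 (0.152) or 18 f 2 (0.0508). Igf2r 1424112_at was called in females alone, at 10.86, 10.62 and 10.81 in 18 f, against 10.42, 10.28 and 10.33 in 17 f (0.42, SE 0.12, limma adjusted p = 0.0146), and lost that call without 17 f 2 (0.0542) or 18 f 1 (0.0639). In flutamide-treated males its difference of 0.31 became 0.44 and was called without 18 flut 2, a pool high in liver genes (adjusted p = 0.0165). The indicator of the 3 pools high in pancreas genes ended these female calls of 1428967_at, 1426565_at and 1424112_at. The sex difference in the Igf2r change was not called (-0.54, limma adjusted p = 0.0816).

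**Figure D4:**
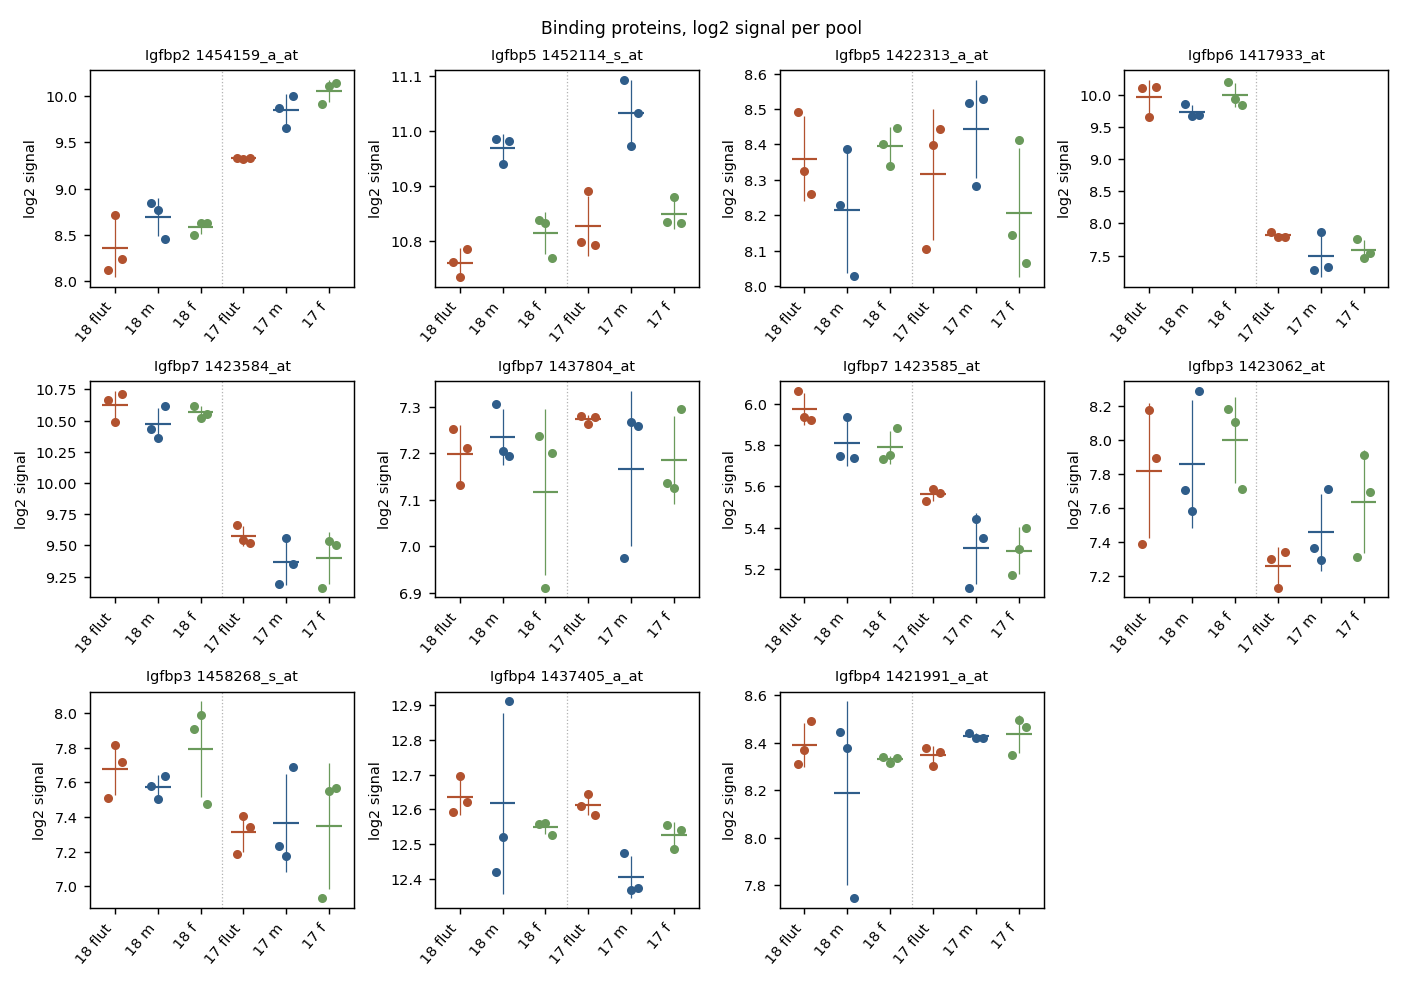
Log2 signal (vertical axis) of 11 binding protein probe sets in the 6 groups (horizontal axis, 3 pools each), with points for pools, horizontal lines for means and vertical lines for 1 SD to each side. For Igfbp6 the GD18 pools lie between 9.66 and 10.21 and the GD17 pools between 7.28 and 7.87, while for Igfbp2 the GD18 pools (8.13 to 8.85) lie below the GD17 pools (9.32 to 10.13).

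Igfbp3 and Igfbp4 showed no call between the days with all pools in the fit, but single pools decided this. Igfbp3, the main carrier of IGFs in adult serum, was at 7.39, 8.17 and 7.89 in 18 flut, against 7.30, 7.13 and 7.34 in 17 flut in 1423062_at, a difference of 0.56 (SE 0.21, limma adjusted p = 0.0781), and its 6 day differences in 2 probe sets lay between 0.21 and 0.56. Without 18 flut 1 that difference was 0.77 and called (adjusted p = 0.0208), and with array weights it was called at 0.55. In females 1458268_s_at was called without 17 f 2 (0.54, adjusted p = 0.0441), 17 f 3 (0.55, adjusted p = 0.0394) or 18 f 3 (0.60, adjusted p = 0.0176), beside 0.44 with all pools. Pools 17 f 2 and 17 f 3 were among the 3 high in pancreas genes. With the mean of those genes 1458268_s_at had r = 0.157 over 18 pools, and 0.795 after the group means were subtracted. With 8 squamous epithelium genes, which averaged 9.46 in 17 f 2 and 17 f 3, the values were 0.452 and 0.813. For 1423062_at the values after subtraction were 0.50 (pancreas), 0.66 (squamous) and 0.606 (liver). The part of these lists was not tested. For Igfbp4 the 6 probe sets differed by -0.24 to 0.25, but without 18 m 1, 5 of them were called in males, with differences of 0.31 for 1437405_a_at, 0.30 for 1437406_x_at, 0.39 for 1423756_s_at, 0.35 for 1423757_x_at and -0.37 for 1421991_a_at (adjusted p from 0.017 to 0.0412). Pool 18 m 3 was the highest of all pools for Igfbp4 1423756_s_at (12.50) and the lowest for 1421991_a_at (7.74), which otherwise lay between 8.30 and 8.50. The correlation of 1421991_a_at with 4 of the other Igfbp4 probe sets (r from -0.87 to -0.77 over 18 pools) holds that far point.

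**Figure D5:**
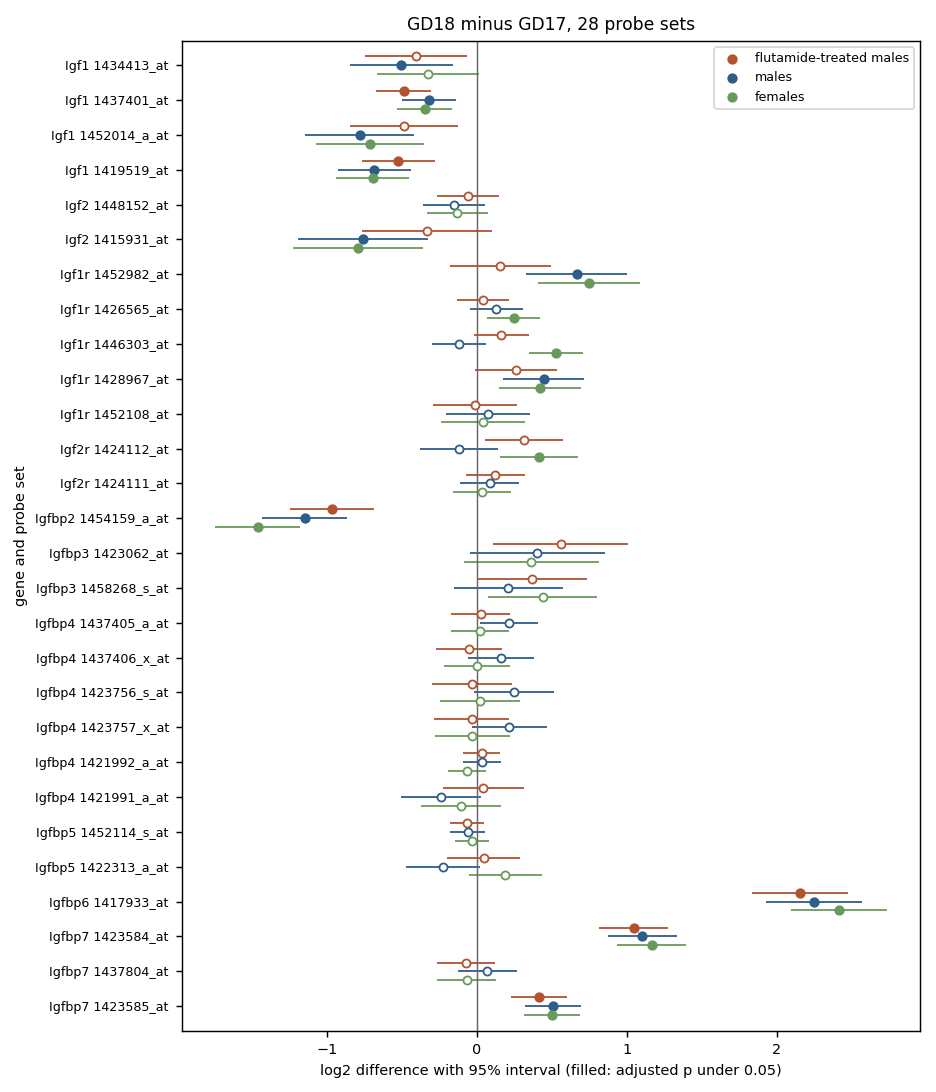
Difference in log2 signal between GD18 and GD17 (horizontal axis) for the 28 probe sets (vertical axis) in flutamide-treated males, males and females, with 95% intervals from limma. Filled points have an adjusted p under 0.05, with Igfbp6 at 2.16 to 2.41, Igfbp7 1423584_at at 1.05 to 1.17 and Igfbp2 at -1.47 to -0.97.

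The rise of Igfbp6 and Igfbp7 and the fall of Igfbp2 ran with the summed signal of several marker lists. The 8 lung epithelium genes, all found, summed to 46135 to 53098 in 18 flut, against 27816 to 29567 in 17 flut, to 44085 to 46151 in 18 m, against 21056 to 27126 in 17 m, and to 45994 to 50129 in 18 f, against 21601 to 24006 in 17 f. Members of this list did not all move one way: Epcam was at 10.40 to 10.78 in the GD18 pools, against 10.88 to 11.14 in the GD17 pools, and Nkx2-1 stayed within 5.77 to 6.63 in all. Over the 18 pools their mean log2 signal had r = 0.98 with Igfbp6, 0.96 with Igfbp7 1423584_at and -0.97 with Igfbp2. After the group means were subtracted these values were 0.87, 0.22 and -0.67. The sums of mesenchyme, macrophage, mesothelium and endothelium genes were also higher at GD18 in every group without overlap, but not each gene of these lists was. The endothelium sum was 4289 to 5472 in 18 m, against 3294 to 4016 in 17 m. In males Col1a1 was lower, at 10.32 to 10.59 in 18 m, against 10.60 to 10.72 in 17 m. The male groups overlapped for Col1a2, Col3a1, Pdgfra and Dcn of the mesenchyme list and Cd68, Ptprc and Mrc1 of the macrophage list. They also overlapped for Wt1 of the mesothelium list and Pecam1, Tek and Emcn of the endothelium list. Lyz2 of the macrophage list was at 10.54 to 11.22 in 18 m, against 8.71 to 9.02 in 17 m. Msln of the mesothelium list was at 8.84 to 9.61 in 18 m, against 6.42 to 6.91 in 17 m. In males the mesenchyme sum was 42559 to 43750 in 18 m, against 34065 to 37058 in 17 m, the macrophage sum 3736 to 4928, against 2133 to 2301, and the mesothelium sum 1338 to 1645, against 778 to 810. The mesenchyme genes had r = 0.93 with Igfbp6, 0.92 with Igfbp7 1423584_at and -0.86 with Igfbp2 (0.34, 0.51 and -0.28 after the group means were subtracted). The cell division genes had r = 0.87 with Igf1 1437401_at and 0.90 with Igfbp2 (0.49 and 0.55 after the group means were subtracted). All points share the pools and the normalization, and the part of these markers in the results was not tested.

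The genes most like each member were named by Pearson r over the 18 pools among 11383 genes of at least median signal, 1 probe set per gene. For Igfbp6 they were Cbr2, a carbonyl reductase of airway cells (0.998), Aqp1, a water channel (0.997), and Tmem212 (0.993). For Igfbp7 1423584_at they were Ncf1 (0.99), Lyz1 (0.99) and Lyz2 (0.99), genes of phagocytes and secretory cells, and for Igfbp2 they were Kdelr3 (0.98), the growth factor Pdgfc (0.98) and Dnajc11 (0.98). Igf1 1434413_at ran with Ckap5 (0.94), a spindle protein, Pds5b (0.93), a cohesin regulator, and Fmr1 (0.92), and Igf1r 1452982_at with Wdr26 (0.95), Fam168a (0.95) and Fstl1 (0.94). Igfbp5 1452114_s_at ran with the zinc finger genes Zfp930 (0.88) and Zfp943 (0.87) and with Tasor2 (0.86), but these fell to 0.19, -0.12 and 0.27 once group means were subtracted, so that the likeness lay between groups and not among pools of a group. For Igf2 1448152_at, Igf2r 1424112_at, Igfbp3 1423062_at and Igfbp4 1437405_a_at the highest values were 0.86 (Fap), 0.82 (Krit1), 0.93 (Rragd) and 0.95 (Sppl3, with 18 m 3 as the far point).

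Other genes of the pathway were taken from a list of 36, of which 32 had a probe set with 1 symbol. None of the 32 was called by limma in the flutamide comparisons (5 at an unadjusted p under 0.05 at GD18, 3 at GD17), in the sex comparisons (2 at GD18, 3 at GD17) or in the interactions with day (3 each). Between the days 7 were higher and 2 lower in flutamide-treated males (28.1% of the list, beside 20.3% of all probe sets), 8 higher and 2 lower in males (31.25%, beside 25.0%), and 9 higher and 2 lower in females (34.4%, close to the background of 33.6%). Insr, the insulin receptor, was at 8.72 to 8.76 in 18 flut, against 7.98 to 8.06 in 17 flut, and rose by 0.72, 0.94 and 1.01 in the 3 groups. Foxo3, a transcription factor that AKT holds out of the nucleus, rose by 0.52, 0.68 and 0.78, Pik3r1, the regulatory subunit of PI3-kinase, by 0.61, 0.45 and 0.64, and Htra1, a protease that cleaves binding proteins, by 0.33, 0.36 and 0.53. Among the 4 smallest p of a comparison were also Ghr, the growth hormone receptor, which fell by 0.31 in flutamide-treated males, and Pik3cb, a catalytic subunit of PI3-kinase, which rose by 0.52 in males.

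Igfbp1, a binding protein made mainly by liver, had no call, but its signal was 11.39 in 18 m 3, the pool highest in liver genes, against 7.16 and 5.31 in 18 m 1 and 18 m 2, and the day difference in males was 1.88 (SE 1.15, limma adjusted p = 0.273). Fcgr2b, an Fc receptor for IgG and not a gene of this axis, is listed among IGF genes in the study under an alias. Its probe set of highest mean was at 8.47, 8.55 and 8.25 in 17 flut and 7.98, 8.02 and 8.33 in 17 m, with overlap. The difference of 0.31 (SE 0.10, limma adjusted p = 0.0943) was not called and had the opposite direction to the study's listing. No other probe set of this gene was examined here.

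In the order of group means, Igf1 was highest in 17 m and lowest in 18 flut in all 4 of its probe sets. For 1437401_at the order was 17 m, 17 f, 18 m, 17 flut, 18 f and 18 flut, and only the neighbours 17 m and 17 f, and 18 f and 18 flut, did not overlap. Igfbp2 ran from 17 f, 17 m and 17 flut to 18 m, 18 f and 18 flut, with gaps between 17 m and 17 flut and between 17 flut and 18 m. Igfbp6 ran from 18 f, 18 flut and 18 m to 17 flut, 17 f and 17 m, with gaps between 18 m and 17 flut and between 17 flut and 17 f, and Igfbp5 1452114_s_at had its single gap between 18 m and 17 f, with both male groups above all others.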

How the data were processed

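RNA of 18 lung pools had been hybridized to Affymetrix MOE430 2.0 arrays. The authors subtracted background, normalized and summarized each probe set with RMA, and the deposited intensity is on a linear scale (6.61 to 30228). The submitters' notes name limma, with no version given in the sources used here. Here log2 was taken, the 64 AFFX controls of 45101 probe sets were left out, and a mean for each of 6 groups was fitted with limma 3.58.1 in R 4.3.3 (12 residual degrees of freedom, eBayes, statmod 1.5.0). Adjusted p is Benjamini-Hochberg over 45037 probe sets within a comparison. Symbols come from an annotation of 2016, with 34945 probe sets of 1 symbol, 932 of several and 9160 of none, and the fit was tested on simulated data. All member probe sets are reported, and up to 4 other pathway genes per comparison with the smallest p among those called. The members and lists were chosen with earlier results of these data known. The spread is that between pools of separate fetuses. Alternatives were 2 rescalings, a level filter, array weights, another variance prior, a replicate block, an indicator of 3 pools, 2 pools left out together, the compared groups alone, a stricter threshold and each pool left out in turn. Sequences and their motif matches are from RefSeq (GRCm38.p6), and all 10 members had a stretch in its table.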

Additional observations from a re-analysis of the deposited data

Results flagged for a closer look

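The difference between the sexes in Igf1r 1446303_at was not the same on the 2 days, by a direct test of the GD18 difference minus the GD17 difference. This value was -0.65 (SE 0.12, limma adjusted p = 0.00395), with males lower than females in all pools at GD18 and higher in all pools at GD17. The other 4 Igf1r probe sets had values between -0.11 and 0.03 in the same test, none called. With all pools at equal weight no other member and none of the 32 further pathway genes passed this test or the one of flutamide with day. The 1 call among 28 members (3.57%) stood beside 6.54% of all probe sets called. For flutamide with day 0.364% of all were called. With array weights 2 members passed the test of sex with day.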

How the results depend on the processing

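Of 37 called member differences, 26 kept their call with each pool of their groups left out in turn and 11 lost it with some pool, and 0 changed sign in any setting. The count of members called between 17 flut and 17 m was 4, and became 2 with a further quantile normalization, 2 with the indicator of 3 pools, 9 with array weights, 10 with 18 m 3 and 18 flut 3 left out together and 0 at an adjusted p under 0.01, and ran from 0 (without 17 flut 1 or 17 m 1) to 3 with 1 pool left out. Of the 9 and the 10, 2 were called higher. Between 18 flut and 18 m it was 2, and became 1 with quantile normalization, 8 with array weights, 4 with those 2 pools out, 0 with the compared groups alone and 1 at the stricter threshold, and ran from 1 to 6 (without 18 m 3), of which 1 of the 8 and 1 of the 6 were called higher. For sex at GD17 the 0 calls became 2 among probe sets of at least median level, 2 with array weights, 1 with a trended and robust prior, 2 with both pools out and 1 with the compared groups alone, and ran from 0 to 1. For sex at GD18 they became 1 with quantile normalization, 1 with the level filter, 4 with array weights, 1 with the other prior and 2 with both pools out, and ran from 0 to 3 (without 18 m 3). Between the days the 6 calls in flutamide-treated males became 11 with array weights and 11 with the compared groups alone and ran from 6 to 7. The 11 in males became 5 with the compared groups alone and 7 at the stricter threshold and ran from 8 to 16 (without 18 m 1, where 5 Igfbp4 probe sets were added), and the 13 in females became 9 with the indicator of 3 pools and 10 at the stricter threshold, and ran from 10 to 14. The interaction of flutamide with day stayed at 0 and that of sex with day at 1, or 2 with array weights. With the replicate block the flutamide counts became 2 at GD17 and 1 at GD18, Igfbp2 at GD17 and Igfbp5 on both days lost their calls, and the block changed no other call. Pools of equal number did not deviate together in every pair of any comparison (r of their deviations from -0.19 to -0.016 between 17 flut and 17 m, and from -0.169 to 0.187 between 18 flut and 18 m), so the numbers were not taken as pairs. No scaling moved the median of all probe sets in a comparison by over 0.1. Array weights gave 18 m 3 a weight of 0.166 and 18 m 2 a weight of 2.72. The 3 pools per group limit the precision of every value, and the cause of these changes was not tested.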
